A study of Mus musculus with 8 samples.

Results

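The D cyclins (Ccnd1, Ccnd2, Ccnd3), their kinase partner Cdk4 and the CDK inhibitors of the Cip/Kip family (Cdkn1a, Cdkn1b, Cdkn1c) and of the INK4 family (Cdkn2a, Cdkn2b, Cdkn2c) were followed in cultured vascular smooth muscle cells (VSMC) that received moR-21. Every probe of the array table that carried one of these 10 gene symbols was taken, which gave 19 of 25697 probes and 9 of the 10 genes, out of 18138 gene symbols in all. Cdk4 was not analysed here because none of the probes used here carried its symbol. Of the 19 probes, 15 (8 genes) had a detection p-value below 0.01 on 1 or more arrays and were tested, while 1 probe of Ccnd3, 2 of Cdkn1b and the single probe of Cdkn1c did not pass this filter.

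moR-21 is a microRNA-offset RNA, a small RNA cut from the miR-21 precursor next to the mature microRNA. Primary mouse aortic smooth muscle cells, grown out of explants of several aortas and kept in medium with charcoal-stripped serum before use, were transfected with RNAiMAX lipid reagent. The control group (3 samples) received a scrambled oligonucleotide and the moR-21 group (3 samples) a synthetic mimetic of moR-21, both at 5 nM, and RNA was taken after 48 h for Illumina BeadChip arrays. The methods name wild type C57/Bl6 mice under the carotid injury model and give no strain for the aorta donors. The age and sex of these donors are not given in the sources used here. No source says whether the 3 samples of a group came from separate cultures or animals. The p-values therefore rest on a spread between samples that may be technical. The question put to these genes was whether mRNAs that start or hold back the cell cycle differed between cells given the mimetic and cells given the control, since the study asked what moR-21 does to VSMC growth.

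D cyclins are made in response to growth factors, bind the kinases CDK4 and CDK6, and the complexes phosphorylate the retinoblastoma protein, which releases E2F transcription factors and lets a cell pass from G1 into S phase. INK4 proteins bind CDK4 and CDK6 directly and keep D cyclins off them, whereas Cip/Kip proteins bind cyclin-kinase complexes, above all those of CDK2, and can also help D cyclin complexes assemble. Proliferation of VSMC after vessel injury depends on this balance, and p21 (Cdkn1a) and p27 (Cdkn1b) are its best known brakes in the vessel wall.

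The hairpin of the miR-21 precursor is shown because the mimetic derives from it. In the RefSeq annotation of GRCm38.p6 it lies at chr11:86584067-86584158 on the minus strand and is 92 bases long, and the capitals mark the 17 bases that precede mature miR-21a-5p, the side on which moR-21 lies. The exact ends of the mimetic were not taken from a sequence record and are not shown. By the position of GUACC that the study gives, moR-21 starts before the first printed base, so the capitals leave out its start.
Mir21a hairpin: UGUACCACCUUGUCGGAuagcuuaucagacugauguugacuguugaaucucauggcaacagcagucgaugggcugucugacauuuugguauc

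Promoters of 3 genes are shown for orientation, because both detected probes of Ccnd3 and of Cdkn2c differed in the same direction and because Cdkn1a is the textbook target of p53. Each is the 250 bases before a RefSeq transcription start in GRCm38.p6, and 7 of the 10 genes had such a window. Ccnd3 is a long gene (chr17:47505051-47599689) with a start at its upstream end and another inside it, nearer its downstream end. The windows are chr17:47504801-47505050 and chr17:47593217-47593466, both on the plus strand. Capitals mark GC boxes (GGGCGG on either strand) and, in the downstream window, a cAMP response element core (TGACGT). Cdkn2c and Cdkn1a have 2 windows each, of which the one at the outermost start is printed. For Cdkn2c this is chr4:109666757-109667006 on the minus strand, with 3 GC boxes in capitals, and the window not printed (chr4:109665373-109665622) held no GC box. For Cdkn1a it is chr17:29090729-29090978 on the plus strand, with 2 p53 decamers in capitals, and the window not printed (chr17:29093519-29093768) held no p53 decamer and 2 GC boxes.
Ccnd3 upstream start: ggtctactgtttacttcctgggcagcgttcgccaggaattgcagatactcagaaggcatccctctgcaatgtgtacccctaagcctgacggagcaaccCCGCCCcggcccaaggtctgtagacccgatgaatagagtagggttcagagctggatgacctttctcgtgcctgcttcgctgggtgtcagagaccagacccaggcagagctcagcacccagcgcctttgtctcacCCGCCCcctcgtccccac
Ccnd3 downstream start: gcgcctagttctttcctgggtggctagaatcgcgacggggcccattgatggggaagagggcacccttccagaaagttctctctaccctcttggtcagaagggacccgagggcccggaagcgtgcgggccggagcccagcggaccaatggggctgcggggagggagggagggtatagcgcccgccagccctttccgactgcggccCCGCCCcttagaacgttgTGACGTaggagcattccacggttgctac
Cdkn2c: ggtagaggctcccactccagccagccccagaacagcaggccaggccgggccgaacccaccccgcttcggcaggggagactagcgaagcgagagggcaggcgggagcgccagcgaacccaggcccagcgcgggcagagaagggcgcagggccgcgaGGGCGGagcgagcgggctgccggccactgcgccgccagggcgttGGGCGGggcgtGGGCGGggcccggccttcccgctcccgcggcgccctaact
Cdkn1a: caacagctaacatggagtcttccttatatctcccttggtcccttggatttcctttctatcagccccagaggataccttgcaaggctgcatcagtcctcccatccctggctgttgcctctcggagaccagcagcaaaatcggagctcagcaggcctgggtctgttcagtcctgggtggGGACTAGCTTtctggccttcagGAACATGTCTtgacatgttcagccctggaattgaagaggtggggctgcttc
Among 32851 mouse promoter windows of the same length, 32.7% held a GC box, 6.47% the TGACGT core, 7.13% a p53 decamer and 0.0639% a pair of p53 decamers no more than 13 bases apart, as the printed Cdkn1a window did. GC boxes were counted on both strands, as were CACGTG (in 6.02% of windows) and the E2F words TTTCCCGC, TTTGGCGC, TTTCGCGC and TTTGCCGC (in 1.86%), none of which occurred in the 4 windows printed. A match describes the letters only.

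The arrays were alike in depth of detection, with 10285 to 10512 probes detected and median intensities of 102 to 109. Samples of a treatment correlated at 0.997 or above over the tested probes, and the highest correlation across treatments was 0.988. For control sample 1 and moR-21 sample 3 the titles name replicate arrays A and B, treated as repeats and averaged here. The labels do not say whether A and B came from the same RNA. The member probes differed between these repeats by a median of 0.094 and at most 0.20 on the log2 scale. The samples' short descriptions say endothelial cells while their source fields say smooth muscle cells. Of 10 smooth muscle markers on the array 8 were detected on 1 array or more, but the contractile markers Cnn1 and Myh11 were not. Among the 8, Tagln was detected on only 4 arrays and Lmod1 on only 3. Of 13 endothelial markers 3 were detected (Vwf, Flt1, Egfl7) while the defining Pecam1, Cdh5, Kdr, Tek and Tie1 were not. Several marker sums moved with the treatment. Summed smooth muscle marker signal was 13636 to 14229 in control and 17246 to 18306 in moR-21 samples. Most of it came from Acta2 and Tpm1, with log2 control means of 13.18 and 11.59. Of the 8 detected genes 5 had positive and 3 negative log2 differences. Acta2 was called higher (0.40, adjusted p = 2.14e-05), and its dimmer probes read 0.64 to 0.81. Tpm1 (0.36, adjusted p = 8.77e-05) and Des (−0.38, adjusted p = 8.60e-05) passed the p cutoff and fell short of the fold cutoff, Des only just. The fibroblast and mesothelial markers (5 of 8 detected) summed to 14453 to 15036 in control and 11492 to 12752 in moR-21 samples, with all 5 differences negative. In that last list Lum (−0.56) and Upk3b (−1.24) were called lower. Sums of the endothelial markers (716 to 768 and 712 to 745) and of the macrophage markers (1987 to 2045 and 1963 to 2048, 4 of 10 detected, with Ptprc, Emr1 and Cd68 not detected) overlapped between groups. Of the macrophage symbols, Lyz (0.58) and Lyz2 (0.48), both described as lysozyme, were called higher. Whether they read separate genes was not checked. Cd14 read −0.27 (adjusted p = 3.38e-04) and Csf1r −0.01. The part of these shifts in the results on cyclins and inhibitors was not tested, and in bulk RNA fewer cells of a type and less RNA per cell cannot be told apart.

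Of the set, 1 D cyclin, Ccnd3, was lower in the moR-21 samples, and no gene was higher beyond both cutoffs. A probe was called changed when its fold change passed 1.3 (0.38 on the log2 scale) and its adjusted p from limma was under 0.002. By this rule 1 of the 15 tested probes was called, and it was lower, where 6.96% of all 11651 tested probes were called (3.85% lower, 3.12% higher). Without the fold cutoff 6 of the 15 probes passed, 4 higher (2 of Ccnd1, 2 of Cdkn2c) and 2 lower (both of Ccnd3), where 15.7% of all probes did (8.04% higher, 7.66% lower). That count was 3 with median scaling, which kept both Ccnd3 probes, 1 of Ccnd1 and none of Cdkn2c. It was 4 to 6 with single samples left out, and 7 with the replicate number as a block, which added Ccnd2. In 9 of the 15 probes the moR-21 samples did not overlap the controls, 7 above and 2 below, against 45.0% of all probes (23.7% above, 21.2% below). The same numbers, 7 higher and 2 lower, had an unadjusted p under 0.05, where 42.2% of all probes did. The median log2 difference of moR-21 minus control was 0.04 over the 15 probes and 0.0048 over all probes, and the median size of the difference was 0.20 and 0.09. Standard errors of the member differences lay between 0.045 and 0.066. These and the p-values are moderated by limma, which draws the variance of each probe toward that of all tested probes.

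**Figure D1:**
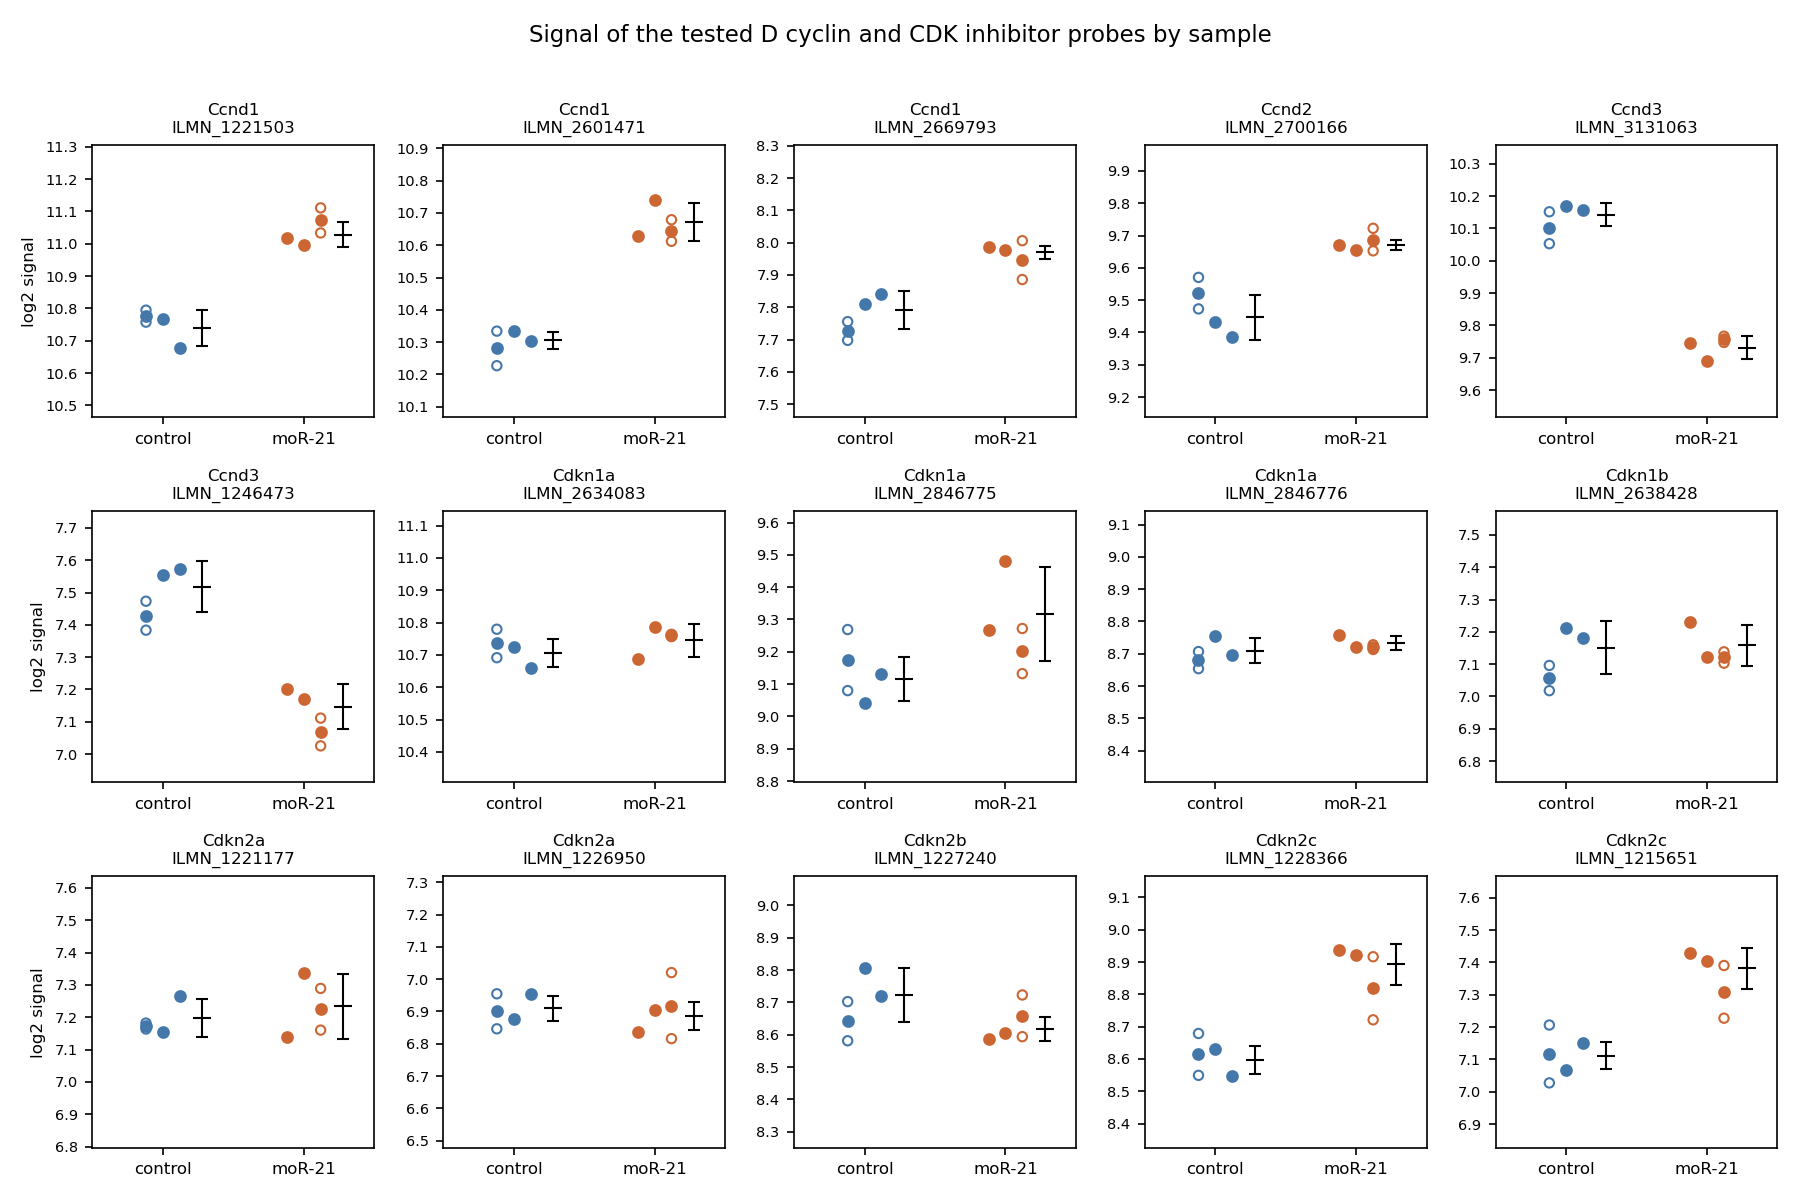
Each panel plots 1 tested probe, with log2 quantile normalized signal on the vertical axis, the control samples on the left and the moR-21 samples on the right; filled points are samples, open circles are the single arrays of the repeated samples, and bars give the group mean ± SD (n = 3). Every panel spans the same number of log2 units, so the gap of Ccnd1, Ccnd2, Ccnd3 and Cdkn2c between groups can be set against the overlap of Cdkn1b, Cdkn2a and Cdkn2b.

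Ccnd3, cyclin D3, was the D cyclin that fell. Its brightest probe (ILMN_3131063, annotated to transcript variant 1) had log2 signals of 10.10, 10.17 and 10.16 in control samples 1 to 3 and 9.75, 9.69 and 9.76 in moR-21 samples 1 to 3. All moR-21 samples lay below all controls, with spreads within a group of 0.036 (SD, n = 3) on both sides. The difference was −0.41 (SE 0.046, 95% confidence interval −0.51 to −0.31), a 1.33-fold decrease, with an adjusted p of 1.12e-05. Leaving out any 1 sample kept it between −0.43 and −0.39.

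The second detected Ccnd3 probe (ILMN_1246473, annotated to transcript variant 3) was dimmer, at 7.43, 7.55 and 7.57 in control and 7.20, 7.17 and 7.07 in moR-21 samples. Here too the groups did not overlap. Its difference of −0.37 (SE 0.054, interval −0.49 to −0.25, adjusted p = 1.16e-04) was a 1.29-fold change that passed the p cutoff and missed the fold cutoff. With normexp background correction the difference was −0.69 and both cutoffs were passed, as they were without control sample 1 (−0.42), moR-21 sample 1 (−0.40) or moR-21 sample 2 (−0.38). The last probe, also annotated to variant 3 (ILMN_2661849), was not above background on any array, with mean log2 signals of 6.69 ± 0.040 in control and 6.70 ± 0.0032 in moR-21 samples (SD, n = 3).

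Ccnd1, cyclin D1, the D cyclin most tied to mitogen signals, was read by 3 probes, all with moR-21 samples above all controls, and none passed both cutoffs. Probe ILMN_1221503 read 10.78, 10.77 and 10.68 in control and 11.02, 10.997 and 11.07 in moR-21 samples. Its difference was 0.29 (SE 0.048, interval 0.19 to 0.39), a 1.22-fold change with an adjusted p of 3.50e-04. The p cutoff was missed with normexp correction (0.00811), median scaling (0.00565) and without moR-21 sample 3 (0.00272). Probe ILMN_2601471 came nearest to a call, at 10.28, 10.33 and 10.30 against 10.63, 10.74 and 10.65. The lowest moR-21 sample stood clear of the highest control there. The difference was 0.37 (SE 0.048, interval 0.26 to 0.47, adjusted p = 4.54e-05), a 1.29-fold change, so that its fold lay just under the cutoff. It was called with normexp correction (0.39), on array A alone of the repeated samples (0.39), and without control sample 2 (0.38), moR-21 sample 1 (0.39) or moR-21 sample 3 (0.38). The dimmest probe, ILMN_2669793, went from 7.73, 7.81 and 7.84 to 7.99, 7.98 and 7.95, a difference of 0.18 (interval 0.08 to 0.28) with an adjusted p of 0.00984. It passed neither cutoff. Of the 3 Ccnd1 probes only this one carried a transcript description, and the others carried the gene symbol alone.

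Ccnd2, cyclin D2, had 1 probe (ILMN_2700166), at 9.52, 9.43 and 9.39 in control and 9.67, 9.66 and 9.69 in moR-21 samples. All moR-21 samples lay above all controls. The difference of 0.22 (SE 0.049, interval 0.12 to 0.33, adjusted p = 0.00250) stayed short of both cutoffs, and it ran from 0.19 to 0.26 when samples were left out in turn. With the replicate number as a block its adjusted p from limma was 0.00157, which passed the p cutoff.

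Differences of the 3 D cyclins lay on both sides of 0. The log2 ratio of Ccnd1 to Ccnd3 signal, each at its brightest probe, gives this within a sample, and it was chosen after the values had been seen. It was 0.67, 0.60 and 0.52 in control samples and 1.27, 1.31 and 1.32 in moR-21 samples. Probes differ in brightness, so the ratio's level has no meaning and only its change of 0.70 between groups is read. For Ccnd2 over Ccnd3 the change was 0.64. No test was made of either, since genes that lay on opposite sides of the controls fix the direction of their ratio.

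**Figure D2:**
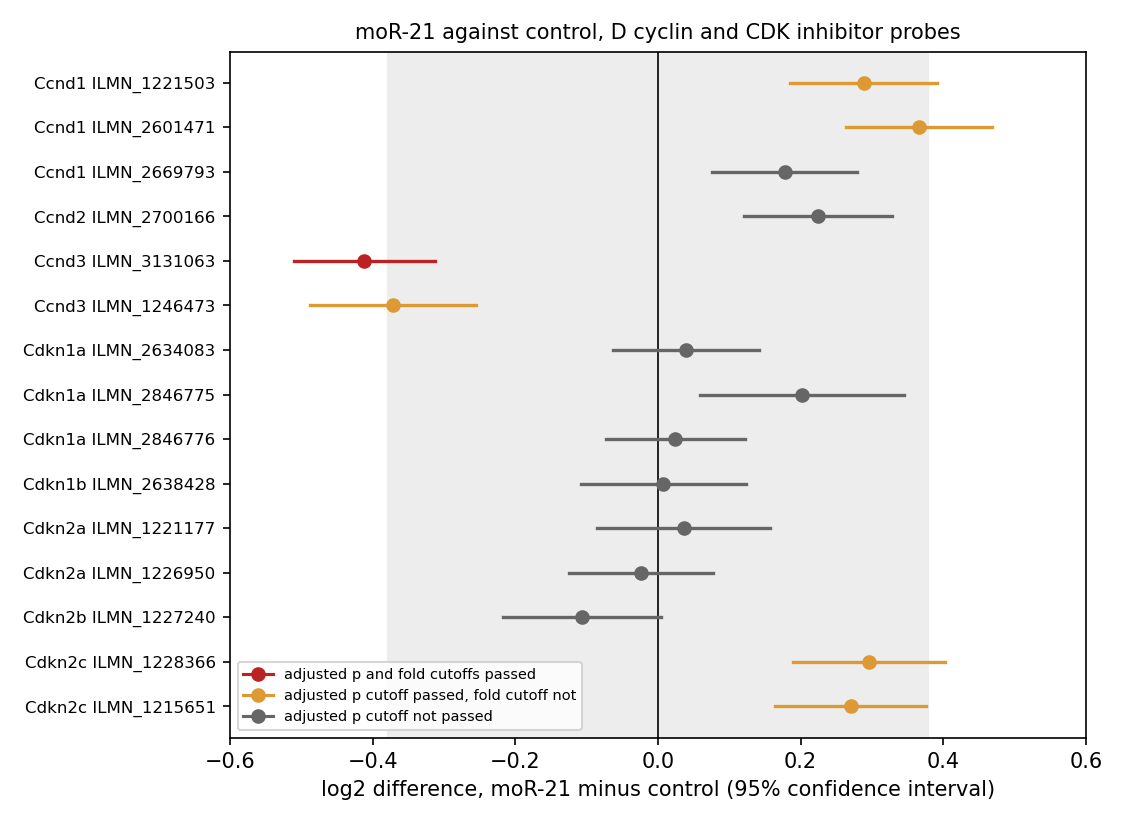
Log2 difference of moR-21 minus control (horizontal axis) with its 95% confidence interval from limma for the 15 tested probes; the grey band spans the fold cutoff of 1.3 in either direction. The interval of Ccnd3 lies left of 0 for both probes and those of Ccnd1, Ccnd2 and Cdkn2c right of 0, and red marks the 1 probe that passed both cutoffs.

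No probe of the Cip/Kip inhibitors passed either cutoff. Cdkn1a, which encodes p21 and is switched on by p53 and by many stresses, had 3 probes. The brightest (ILMN_2634083) read 10.74, 10.72 and 10.66 in control and 10.69, 10.79 and 10.76 in moR-21 samples. The groups overlapped, with a difference of 0.04 (interval −0.06 to 0.14, adjusted p = 0.587). Probe ILMN_2846776 read 8.68, 8.75 and 8.70 against 8.76, 8.72 and 8.72, again overlapping, with a difference of 0.02 (interval −0.07 to 0.12, adjusted p = 0.741). Probe ILMN_2846775 stood apart from these, at 9.17, 9.04 and 9.13 in control and 9.27, 9.48 and 9.20 in moR-21 samples. Its groups did not overlap as sample means, but array A of control sample 1 (9.27) lay above array B of moR-21 sample 3 (9.13). The difference was 0.20 (interval 0.06 to 0.34, adjusted p = 0.0300) and was 0.12 without moR-21 sample 2, the highest of the 6. None of the 3 Cdkn1a probes passed the adjusted p cutoff.

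Cdkn1b, which encodes p27, was detected by 1 of its 3 probes (ILMN_2638428), at 7.06, 7.21 and 7.18 in control and 7.23, 7.12 and 7.12 in moR-21 samples. The samples of both groups were intermixed, and the difference was 0.0075 (interval −0.11 to 0.12, adjusted p = 0.938). Leaving out single samples turned its sign, with values from −0.04 to 0.04. Its 2 other probes were not above background on any array, and neither was the probe of Cdkn1c, which encodes p57 and is silenced on the paternal allele, at 6.73 ± 0.020 and 6.69 ± 0.022 (SD, n = 3).

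Cdkn2c, which encodes the INK4 inhibitor p18, was the inhibitor with the largest differences, and both of its probes were higher with p-values past the cutoff and folds short of it. Probe ILMN_1228366 read 8.61, 8.63 and 8.55 in control and 8.94, 8.92 and 8.82 in moR-21 samples. Probe ILMN_1215651 read 7.12, 7.07 and 7.15 against 7.43, 7.41 and 7.31. In neither did the groups overlap. The differences were 0.30 (SE 0.050, interval 0.19 to 0.40, adjusted p = 3.75e-04) and 0.27 (SE 0.049, interval 0.16 to 0.38, adjusted p = 7.07e-04), or 1.23-fold and 1.21-fold. Repeat arrays of moR-21 sample 3 differed by 0.20 on the first probe. Both missed the p cutoff with median scaling (adjusted p = 0.00396 and 0.00528), on array B alone (0.00330 and 0.0192, the second with a difference of 0.21) and without moR-21 sample 1 (0.00225 and 0.00397). The first also missed it with normexp correction (0.00414), under which the second was called (difference 0.52), and the second without control sample 1 (0.00377), control sample 2 (0.00507) or moR-21 sample 2 (0.00325).

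Cdkn2b, which encodes p15 and responds to TGF-beta, had 1 probe (ILMN_1227240), at 8.64, 8.81 and 8.72 in control and 8.59, 8.60 and 8.66 in moR-21 samples. Only moR-21 sample 3 reached into the control range. The difference was −0.11 (interval −0.22 to 0.00, adjusted p = 0.135), and −0.06 without control sample 2, the highest of the 6. Against it, the log2 ratio of Cdkn2c to Cdkn2b changed by 0.40, from −0.03, −0.18 and −0.17 to 0.35, 0.32 and 0.16 (a pair chosen after the values were seen, with no test).

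Cdkn2a, the neighbour of Cdkn2b on chromosome 4 (89274473 to 89294619, beside 89306289 to 89311032, GRCm38.p6), encodes both p16Ink4a and p19Arf, whose transcripts share exons. Both probes are annotated to transcript variant 1, but probe sequences were not used, so the 2 products were not told apart here. Probe ILMN_1221177 read 7.17, 7.16 and 7.27 in control and 7.14, 7.34 and 7.22 in moR-21 samples. The groups overlapped, with a difference of 0.04 (interval −0.08 to 0.16, adjusted p = 0.679). Probe ILMN_1226950, detected on 7 of 8 arrays, read 6.90, 6.88 and 6.95 against 6.84, 6.90 and 6.92, overlapping, with a difference of −0.02 (adjusted p = 0.75). Both are close to the detection limit. So was the detected Cdkn1b probe, with a mean of 7.15 in control samples. The dimmer detected Ccnd3 probe in moR-21 samples (mean 7.15) and the dimmer Cdkn2c probe in control samples (mean 7.11) lay as low.

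**Figure D3:**
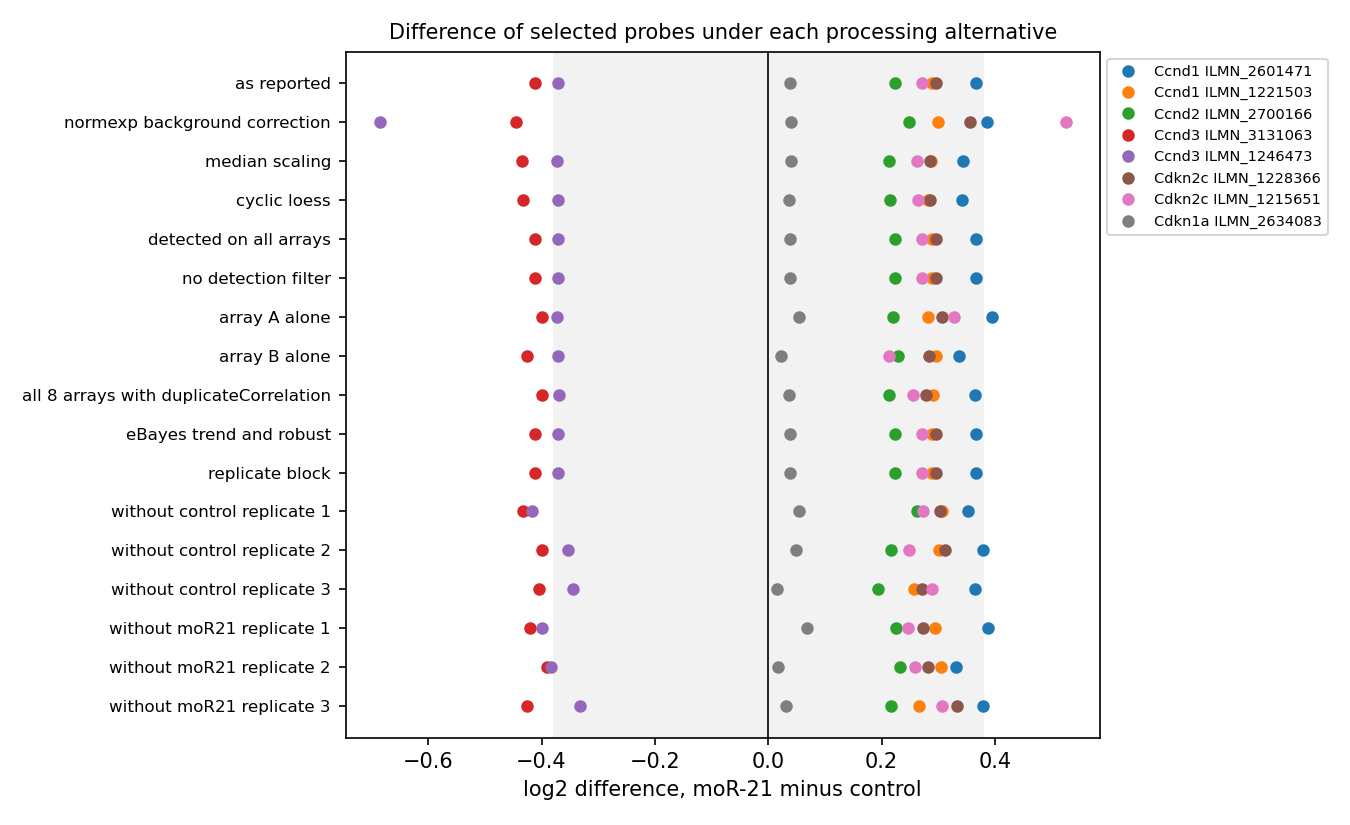
Log2 difference of moR-21 minus control (horizontal axis) for 8 selected probes under the processing as reported and each alternative (rows); the grey band spans the fold cutoff. The Ccnd3 points stay left of 0 and those of Ccnd1, Ccnd2 and Cdkn2c right of 0 in every row, and the dimmer Ccnd3 probe (−0.69) and the dimmer Cdkn2c probe (0.52) move farthest, with normexp correction.

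The genes that work beside this set in G1 and S phase, 27 listed with earlier results of these data known, were read at their brightest detected probe. Of them 25 had a probe and 19 were detected, with Cdk6, Ccna1, Ccna2, Rbl2, E2f7 and Cdk7 not detected. Of these, 1 was called, higher, where 7.79% of the 8727 detected genes were called (3.41% higher, 4.38% lower). That gene was E2f1, the transcription factor released by retinoblastoma protein phosphorylation, at 8.10, 8.12 and 8.17 in control and 8.45, 8.59 and 8.49 in moR-21 samples. Its difference of 0.38 (SE 0.050, adjusted p = 4.70e-05) was a 1.302-fold increase at the edge of the fold cutoff, and the call was lost without control sample 1 (0.37), control sample 2 (0.37) or moR-21 sample 2 (0.34), with cyclic loess (0.38) and on array B alone (0.38). Of the 19 genes 14 had positive and 5 negative differences, with a median of 0.11 beside 0.0056 for all genes. An INK4 inhibitor outside the set, Cdkn2d, was among the positive ones, at 0.13 (adjusted p = 0.038). The 2 brightest genes without a call were Hsp90ab1, a chaperone whose clients include CDK4, at 0.16 (adjusted p = 0.0162), and Cdk2, the kinase of S phase entry, at 0.11 (adjusted p = 0.125). Dimmer probes read 0.16 and 0.08 for Hsp90ab1 and 0.11, 0.12 and −0.01 for Cdk2.

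Genes that act on the level of D cyclins and inhibitors, 36 in the list with 32 on the array and 26 detected, gave 2 called higher and 2 called lower, where the shares over all detected genes were 3.41% and 4.38%. Trp53, the p53 gene, read 9.26, 9.40 and 9.38 in control and 9.79, 9.75 and 9.73 in moR-21 samples, a rise of 0.41 (adjusted p = 2.33e-05) that fell under the fold cutoff without control sample 1 (0.37). Rbx1, the RING subunit of the SCF ubiquitin ligases that degrade p27 and cyclins, rose by 0.42 (adjusted p = 2.31e-05) at its brightest probe, while its dimmer probe read −0.04. Id1, a helix-loop-helix inhibitor of the Cdkn2a promoter's activators, fell by 0.58, from 10.01, 9.96 and 10.04 to 9.36, 9.45 and 9.44 (adjusted p = 5.31e-07). Klf4, a zinc finger factor that binds the Cdkn1a promoter, fell by 0.52 (adjusted p = 1.83e-06), and its 2 dimmer probes read −0.43 and −0.21. Mdm2, the ligase that degrades p53, was the brightest gene without a call, at 0.03 (interval −0.09 to 0.16, adjusted p = 0.735), with a dimmer probe at 0.23. The next was Cops5, which carries p27 out of the nucleus, at −0.10 (adjusted p = 0.115), with a dimmer probe at −0.14. Without the fold cutoff Jun (0.30) and Smad2 (0.25) passed as well, named after their values were seen. The median over the 26 genes was −0.0060, with 13 differences on each side of 0.

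**Figure D4:**
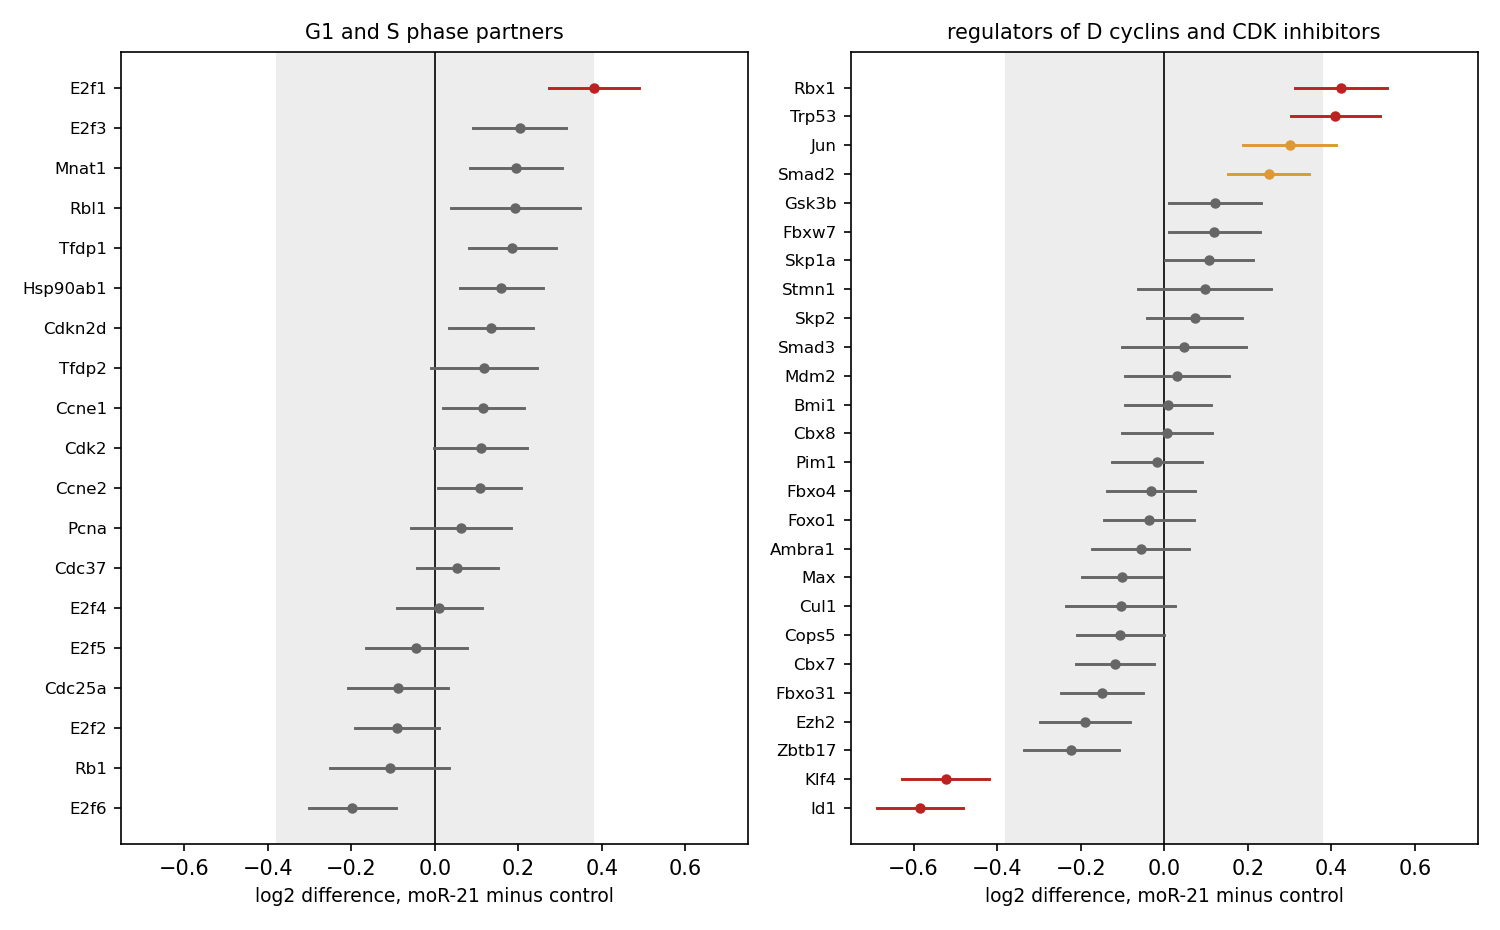
Log2 difference of moR-21 minus control with its 95% confidence interval for the detected partner genes (left) and regulators (right), each at its brightest probe; red passed both cutoffs, orange the adjusted p cutoff alone, and the grey band spans the fold cutoff. E2f1, Rbx1, Trp53, Klf4 and Id1 lie outside the band, and most partner genes lie to the right of 0 inside it.

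The pattern of Ccnd3 over the 6 samples was most like that of 3 other probes, by the root mean square difference of values centred on each probe's mean. They were E330036I19Rik (0.017), Gtf3c5, a subunit of transcription factor TFIIIC (0.020), and Ube2e1, a ubiquitin-conjugating enzyme (0.022). Their log2 differences were −0.41, −0.42 and −0.45. All 3 were taken for their likeness, so no test was made.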

How the data were processed

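Gene expression was measured in 6 samples on 8 Illumina mouse BeadChip arrays. The authors deposited non-normalized probe intensities, with a detection p-value deposited beside each intensity. Per the labels, Beadstudio, lumi and limma were used, and the chip design is given differently in the sources. No column lacked a sample (0). Repeat arrays A and B were averaged as 1 sample. Quantile normalization was applied across the 8 arrays, values were put on the log2 scale, and limma (lmFit, eBayes) was run over 11651 probes detected at p under 0.01 on 1 array or more, with Benjamini-Hochberg adjustment over all of them. The 8 arrays limit the precision.

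Named were all members with every probe. From the 2 pathway lists came all called genes up to 8 and the 2 brightest uncalled genes of each. The 3 probes most like the called member were named too. Jun, Smad2, Cdkn2d and the markers were added after their values were seen. Members and lists were chosen with earlier results of these data known. Alternatives were normexp (offset 16), median scaling, cyclic loess, other detection filters, array A or B alone, duplicateCorrelation over all arrays, eBayes with trend and robust, a replicate block, single samples left out, any probe of a gene, and other cutoffs. Samples were not paired by replicate number, except in the replicate block. The fitting was tested on simulated data, where some probes with changes larger than any member difference were missed at these cutoffs. A first requirement on the share recovered was not met at the smaller simulated size and was then dropped for that size. A probe without a call may therefore still differ. R 4.3.3, limma 3.58.1, Python 3.11.15, numpy 2.4.6, pandas 2.3.3 and matplotlib 3.10.9 were used. Gene positions and sequences came from RefSeq (GRCm38.p6), in which all 10 genes had an entry. Probe sequences were not used here.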

Additional observations from a re-analysis of the deposited data

How the results depend on the processing

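The fall of the brightest Ccnd3 probe passed both cutoffs under every alternative run but a fold cutoff of 1.5, with differences from −0.45 to −0.39. The number of called member probes, 1 as reported, was 4 with normexp correction, 2 on array A alone, 0 at a fold over 1.5, 6 with no fold cutoff, and 1 to 3 with single samples left out (3 without moR-21 sample 1). Over all probes 811 were called as reported, 1180 with normexp correction, 260 at a fold over 1.5 and 1829 with no fold cutoff. For the partner genes the count of 1 became 0 with cyclic loess, on array B alone and at a fold over 1.5, and was 0 to 1 with single samples left out. For the regulators the count of 4 became 0 at a fold over 1.5 and lay between 3 and 6 otherwise. Signs turned in probes near 0 only: with single samples left out, Cdkn1b ran from −0.039 to 0.039, the brighter Cdkn2a probe from −0.016 to 0.083, the dimmer Cdkn2a probe from −0.041 to 0.0013 and Mdm2 from −0.0099 to 0.087, and Mdm2 was −0.0045 on array A alone. The cause of these changes was not tested.

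Deviations of samples with the same replicate number correlated at 0.19, 0.044 and 0.060, and those with different numbers at −0.13 to 0.069. The highest of the latter was control sample 3 with moR-21 sample 2. So few values cannot tell whether equal numbers mark paired samples, and the main fit used no pairing. With the replicate block the counts were 1 member probe, 1 partner gene and 4 regulators, and 815 probes in all.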

Other observations

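Cyclins and CDKs outside the set, taken by symbol after the data had been seen and read at their brightest probe, gave 15 detected genes. Of these 1 was called higher and 2 lower, beside 3.41% and 4.38% of the 8727 detected genes. Ccne1, Ccne2 and Cdk2 among them were also counted as partner genes. Other probes of Ccnb1, Ccng1, Cdk8 and Ccnc, if any, are not given. Ccnb1, the mitotic cyclin B1, rose by 0.49 (adjusted p = 1.83e-05). Ccng1, cyclin G1, a p53 target, fell by 0.75 (adjusted p = 8.16e-06), and Cdk8, a kinase of the Mediator complex, fell by 0.55 (adjusted p = 1.93e-05). Its partner Ccnc read −0.36 (adjusted p = 3.31e-04), which passed the p cutoff and missed the fold cutoff, and it passed both in several alternatives, among them array B alone (−0.40). The median over the 15 genes was 0.0084, beside 0.0056 for all genes.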
